A study of Homo sapiens with 12 samples.

Results

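The replication-dependent histone genes of the HIST1, HIST2, HIST3 and HIST4 clusters were followed in PANC-1 cells, an established line grown from a human carcinoma of the pancreas, after 24 h with chaetocin, MLN8237, both compounds or vehicle. Members were the genes of the deposited table whose symbol begins with HIST, a cluster number and a core or linker histone type (H1, H2A, H2B, H3 or H4). Of 89 symbols of that form, 13 with a pseudogene suffix were left out, which gave 76 members of 57773 genes in the table. There were 3 RNA-seq libraries in each of 4 groups: 30 nM chaetocin with 90 nM MLN8237 (the combination), 30 nM chaetocin alone, 90 nM MLN8237 alone, and DMSO vehicle. One digit of the compound code in the combination label is not that of MLN8237, and both were taken to be the same compound. Chaetocin is a fungal metabolite that inhibits the histone H3 lysine methyltransferase SUV39H1 and thioredoxin reductase, and MLN8237, or alisertib, inhibits the mitotic kinase Aurora A.

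Replication-dependent histone genes supply the core and linker histones that package newly copied DNA, and most of their transcription takes place in S phase. Their mRNAs have no introns and mostly no poly(A) tail. They end instead just after a conserved stem-loop that is bound by SLBP, the stem-loop binding protein, and is cut with the help of the U7 small nuclear RNP. Several members also make longer, polyadenylated mRNAs that run past the stem-loop, and these are known from differentiated and non-dividing cells. The labels give total RNA and a standard Illumina library protocol, and no source used here says whether poly(A) RNA was selected. A level below is therefore the level of those histone transcripts that the libraries captured, and tailed and untailed forms cannot be told apart in gene counts.

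The stem-loop was looked for by its consensus in the GENCODE 29 transcripts of the members, all 76 of which matched by symbol. It was found in 35 members, against 42 of all 58721 genes there (0.072%). In 25 members the annotated transcript ran at least 100 bases past it. The absence of a match says only that these letters are not in the annotated transcript, which for many members stops at the coding sequence. The stem-loops of 6 members described below are printed from the transcript strand with 5 bases on either side, the 16 bases of the stem-loop in capitals, to show how the element varies between a called H4 gene, called H2A and H2B genes and members that were not called.

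HIST1H4H: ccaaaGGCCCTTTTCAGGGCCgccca
HIST1H4I: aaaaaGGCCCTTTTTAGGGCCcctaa
HIST1H2AG: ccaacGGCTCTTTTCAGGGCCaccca
HIST1H2BN: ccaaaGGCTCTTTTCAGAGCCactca
HIST1H2AC: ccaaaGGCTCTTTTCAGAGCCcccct
HIST1H2BC: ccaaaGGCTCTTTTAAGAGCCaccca

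Of 6 forms found, the one of HIST1H2BN and HIST1H2AC was in 18 members and the one of HIST1H4H in 5. The form of HIST1H2BC was also in 5 members, and those of HIST1H4I and HIST1H2AG were in 3 each. HIST1H2BN, which rose with both treatments that contain chaetocin, and HIST1H2AC, which did not pass either test, have the same 16 bases. Whether the form of the stem-loop goes with the response was not tested.

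RefSeq promoters (GRCh38.p14, 250 bases before to 50 after the start) were matched for 56 members. They were searched on both strands for TATAAA (the TATA box), CCAAT (the CCAAT box), ATTTGCAT (the octamer bound by POU2F1) and AAACACA (a box known from H1 promoters); a TATAAA can overlap another on the opposite strand. TATAAA was in 37 of 56 members (11.5% of 35116 promoters) and CCAAT in 46 (34.6%). CCAAT was in every H1, H2A, H2B and H3 promoter matched and in 3 of 13 H4 promoters. The octamer was in 19 members (1.8% of all promoters), made up of 11 of 16 H2A and 8 of 11 H2B promoters. AAACACA was in all 6 H1 promoters and in 9 of 56 members (5.6% of all promoters). Promoters of 4 members that rose are printed on the strand of their gene, motifs of either strand in capitals, because each stands for a histone type and the results below turn on these genes.

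HIST1H1C, chr6:26056421-26056720, minus strand: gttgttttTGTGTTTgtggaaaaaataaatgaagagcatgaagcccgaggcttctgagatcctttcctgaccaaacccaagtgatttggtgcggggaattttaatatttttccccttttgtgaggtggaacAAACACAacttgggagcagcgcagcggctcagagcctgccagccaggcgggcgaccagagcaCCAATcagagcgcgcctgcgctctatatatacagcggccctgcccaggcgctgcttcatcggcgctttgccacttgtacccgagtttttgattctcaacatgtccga
HIST1H2BJ, chr6:27132746-27133045, minus strand: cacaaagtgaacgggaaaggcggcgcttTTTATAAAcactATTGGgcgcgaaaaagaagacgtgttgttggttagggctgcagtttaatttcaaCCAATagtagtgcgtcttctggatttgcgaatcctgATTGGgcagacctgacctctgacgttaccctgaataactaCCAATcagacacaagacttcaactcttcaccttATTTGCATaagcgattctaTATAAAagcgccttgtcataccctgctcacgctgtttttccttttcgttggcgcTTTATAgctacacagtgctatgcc
HIST1H3B, chr6:26032050-26032349, minus strand: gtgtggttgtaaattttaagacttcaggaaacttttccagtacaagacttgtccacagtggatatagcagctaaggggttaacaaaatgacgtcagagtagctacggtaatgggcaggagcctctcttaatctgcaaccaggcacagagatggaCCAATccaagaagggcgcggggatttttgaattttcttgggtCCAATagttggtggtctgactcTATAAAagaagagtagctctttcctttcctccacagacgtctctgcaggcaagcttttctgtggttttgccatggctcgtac
HIST1H4H, chr6:26285485-26285784, minus strand: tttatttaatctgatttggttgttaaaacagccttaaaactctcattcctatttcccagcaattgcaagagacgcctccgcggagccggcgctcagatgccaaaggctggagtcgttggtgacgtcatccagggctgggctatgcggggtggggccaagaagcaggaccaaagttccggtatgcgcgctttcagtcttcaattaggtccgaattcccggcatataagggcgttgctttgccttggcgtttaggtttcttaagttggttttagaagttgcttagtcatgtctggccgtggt

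The window of HIST1H2BJ is largely that of HIST1H2AG read on the other strand, since the pair is transcribed divergently from one promoter region. The HIST1H4H window holds none of the 4 motifs, and HIST1H4H had the second smallest p of any member with the combination. Whether the motifs go with the response was not tested.

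The files held 49439795 to 63747510 counts per library, of which 5757 to 16274 fell on members. The epithelial keratin genes KRT8, KRT18 and KRT19 were abundant, at means of 1054, 753 and 178 CPM in combination libraries and 2286, 1629 and 418 CPM in vehicle libraries (CPM, counts scaled to library size by TMM). The acinar genes PRSS1 and CPA1, the endocrine genes INS and GCG and the T cell gene CD3E were at or near 0, between 0 and 0.0231 CPM in every group mean. The leukocyte gene PTPRC averaged 0.667 CPM with the combination, 0.380 with chaetocin and 0.0146 with MLN8237, and was at 0 in vehicle. KRT8, KRT18 and KRT19 fell and PTPRC rose with both the combination and chaetocin, and the part of these changes in the results below was not tested. In a principal component analysis the first component (59.9% of variance) separated the libraries with chaetocin from those without, and combination replicate 2 lay near the chaetocin libraries. The treated libraries numbered 3 stood apart on the second (14.6%), MLN8237 replicate 3 farthest. Libraries of 1 group differed by more than sampling noise in every pair (chi-square of 5.739 to 126.1 a gene). Nothing in the labels ties replicates to separate cultures, and p-values therefore cover only how far these libraries differ, in part perhaps for technical reasons.

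Of the 76 members, 44 passed the expression filter and were tested. A further 27 had counts but did not pass, and 5 had no count in any library (HIST1H2AA, HIST1H2BA, HIST1H3F, HIST1H4G and HIST2H3A). Tested members were 4 of 6 H1, 12 of 17 H2A, 15 of 23 H2B, 9 of 15 H3 and 4 of 15 H4 genes. By cluster they were 35 of 55 in HIST1 on chromosome 6, 7 of 16 in HIST2 and 1 of 4 in HIST3 on chromosome 1, and the 1 member of HIST4 on chromosome 12. A gene could pass through its level in the treated libraries alone. Counts are therefore also given for the 35 tested members whose vehicle mean was at or above the filter's cutoff of 0.178 CPM.

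A few genes carried most of the signal. HIST1H2BK held 41.6% of all member counts, and together with HIST1H1C, HIST1H2AC, HIST1H2BJ and HIST1H2BD it held 74.3%. On the deposited RPKM scale, which divides by length and library total, the mean level over all 12 libraries was 84.5 RPKM for HIST1H2BK, 23.3 for HIST1H1C, 12.1 for HIST1H2BJ, 10.1 for HIST1H2BD and 9.12 for HIST1H2AC. The highest H4 gene was HIST1H4H at 5.17 RPKM and the highest H3 gene HIST1H3B at 3.0 RPKM. HIST1H1C encodes a linker histone, which binds DNA between nucleosomes, and the others encode core histones of the nucleosome itself.

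**Figure D1:**
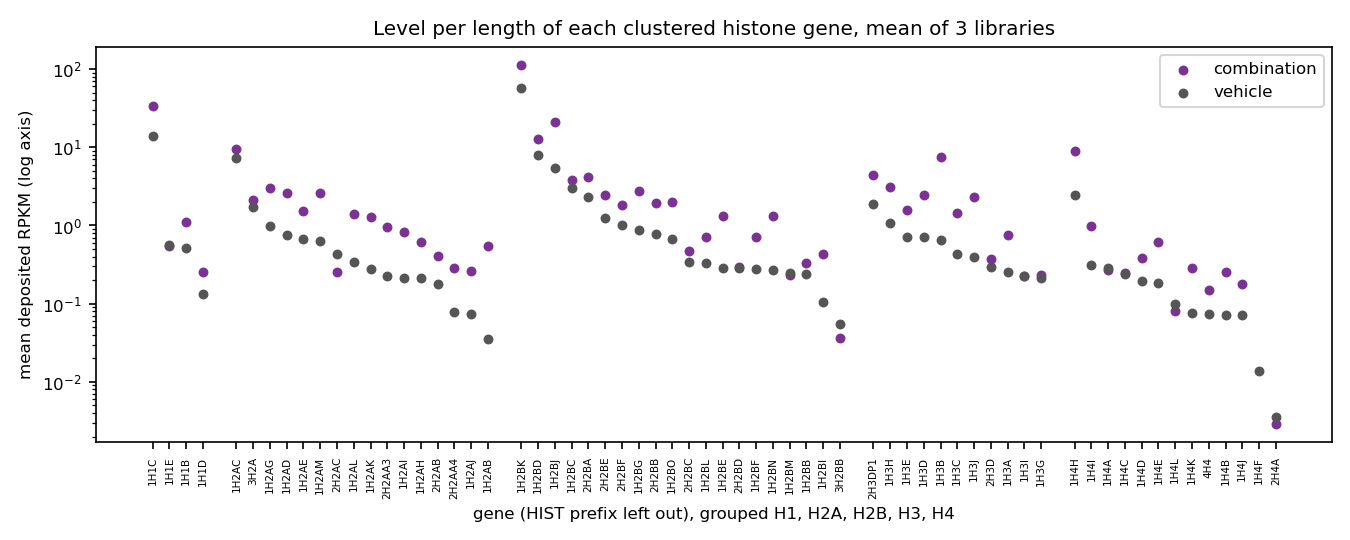
Mean deposited RPKM (log axis) of the 64 members with a vehicle value above 0, grouped by histone type, in combination libraries (purple) and vehicle libraries (grey), each a mean of 3 libraries; a point at 0 cannot be drawn on this axis. HIST1H2BK stands highest with 113 RPKM in combination libraries and 56.6 RPKM in vehicle libraries.

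Summed over members of a type, levels were highest with the combination for all 5 types. The 76 members summed to 231 ± 44.9 CPM with the combination, 185 ± 26.7 with chaetocin, 150 ± 21.3 with MLN8237 and 114 ± 5.69 in vehicle (mean ± SD, n = 3 libraries each). The sum was 2.03 times that of vehicle with the combination, 1.62 times with chaetocin and 1.31 times with MLN8237. By library, the sum was 229.6, 187 and 277 CPM with the combination, 158, 186 and 212 with chaetocin, 132, 144 and 173 with MLN8237, and 121, 110.4 and 111 in vehicle. Every treated library lay above every vehicle library, and the combination and chaetocin libraries overlapped.

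H3 and H4 genes encode the histones of the central tetramer of the nucleosome. Their sums had the largest ratios to vehicle with the combination and with chaetocin, but not with MLN8237. Gene by gene the order was different. With the combination, the median log2 fold change of tested members was 1.73 in H2A, 1.59 in H4 and 1.41 in H3. It was 0.95 in H2B and 0.89 in H1. With chaetocin the medians were 0.93 in H2A and H4, 0.83 in H3, 0.71 in H2B and 0.33 in H1. HIST1H2AC, which did not pass, held 12.9 of the 18.4 CPM of the H2A sum in vehicle. The H3 sum was 14.6, 8.99 and 14.4 CPM with the combination, 6.91, 7.71 and 7.24 with chaetocin, 4.15, 3.66 and 2.83 with MLN8237, and 3.17, 3.79 and 4.19 in vehicle. The combination libraries lay above all the others, chaetocin libraries lay between them and vehicle, and MLN8237 and vehicle overlapped. Ratios of mean H3 sums to vehicle were 3.42 with the combination, 1.96 with chaetocin and 0.955 with MLN8237. For H4 they were 3.04 with the combination, 2.21 with chaetocin and 1.25 with MLN8237.

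For H1, H2A and H2B the ratios to vehicle were 2.19, 1.64 and 1.97 with the combination, 1.80, 1.34 and 1.62 with chaetocin, and 1.36, 1.37 and 1.31 with MLN8237. H1 averaged 25.7 ± 5.40 CPM with the combination, 21.1 ± 2.70 with chaetocin, 15.99 ± 4.55 with MLN8237 and 11.7 ± 1.34 in vehicle (SD, n = 3). H2A averaged 30.1 ± 5.28 CPM with the combination, 24.7 ± 3.02 with chaetocin, 25.2 ± 3.08 with MLN8237 and 18.4 ± 1.26 in vehicle, so that the chaetocin and MLN8237 sums differed by less than their SD. H2B, the largest sum through HIST1H2BK, averaged 151 ± 29.1 CPM with the combination, 123 ± 20.5 with chaetocin, 99.9 ± 14.5 with MLN8237 and 76.4 ± 5.54 in vehicle. Without HIST1H2BK the remaining 75 members summed to 141 ± 31.1 CPM with the combination, 105 ± 10.9 with chaetocin, 84.7 ± 10.1 with MLN8237 and 65.2 ± 2.14 in vehicle.

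**Figure D2:**
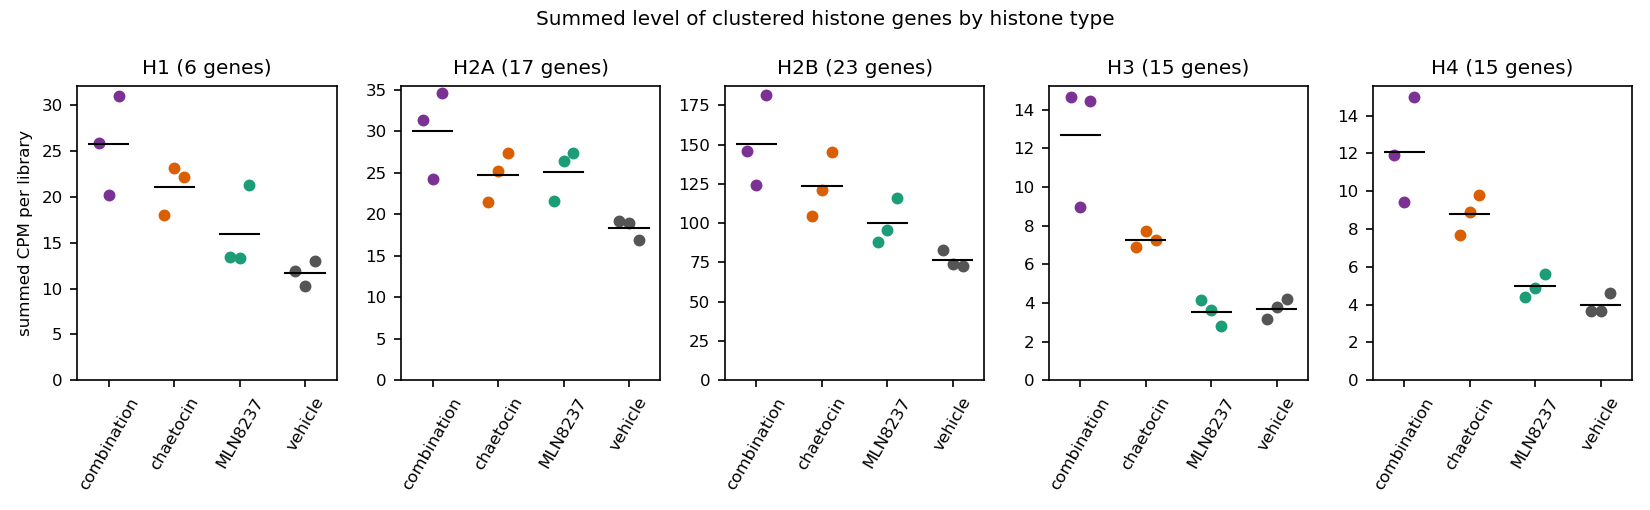
Summed CPM per library (points) and group mean (line) for the members of each histone type, in combination, chaetocin, MLN8237 and vehicle libraries, on axes that start at 0. For H3 the combination libraries sit between 8.99 and 14.6 CPM and the vehicle libraries between 3.17 and 4.19 CPM.

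With the combination against vehicle, 31 of 44 tested members rose and 0 fell at an adjusted p under 0.05 in edgeR, while 20.1% of all 22831 tested genes rose and 18.3% fell. At an unadjusted p under 0.05, 34 members were higher and none lower, and 5603 of all 22831 tested genes were higher. Among the 35 members at or above the cutoff in vehicle, 27 rose, against 16.6% of the 20484 genes tested that meet the same condition. The median log2 fold change was 1.40 over the 44 members and 1.25 over these 35, against 0.02 over all tested genes. Among the 10237 tested genes averaging under 5 CPM over the 12 libraries, 25.9% rose and the median was 0.29. In 35 of 44 members every combination library lay above every vehicle library, which held for 27.5% of all tested genes. Without the 3 treated libraries numbered 3, 32 of 48 tested members rose.

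Among H3 genes, 6 of 9 tested rose. HIST1H3B, which encodes a replicative H3, had 3.94, 2.05 and 4.46 CPM in combination libraries and 0.419, 0.274 and 0.268 CPM in vehicle libraries. Every combination library was several times above every vehicle library, replicate 2 being the lowest of the 3. The log2 fold change was 3.44 ± 0.32 (standard error), with an adjusted p of 9.06e-06 in edgeR, the smallest of all members. HIST1H3J, another H3 gene, had 2.52, 1.19 and 1.91 CPM with the combination against 0.273, 0.420 and 0.376 CPM in vehicle (log2 fold change 2.38 ± 0.29, edgeR adjusted p = 6.05e-05). HIST1H3D rose by 1.66, HIST1H3C by 1.61 and HIST1H3H by 1.41 on the log2 scale. HIST2H3DP1, annotated as a pseudogene, rose by 1.11 and did not pass without combination replicate 1 or vehicle replicate 1 or 3. HIST1H3A (1.39, edgeR adjusted p = 0.0978), HIST1H3E (1.0, 0.0752) and HIST1H3I (-0.09, 0.934) did not pass. HIST1H3E did pass under 5 of 18 alternatives, namely DESeq2, a fit of the compared groups alone, and leaving out MLN8237 replicate 2, MLN8237 replicate 3 or the 3 treated libraries numbered 3.

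Among H4 genes, 3 of 4 tested rose. HIST1H4H had 8.78, 6.66 and 11.4 CPM with the combination and 2.35, 2.48 and 3.11 CPM in vehicle. The groups did not overlap, and the log2 fold change was 1.76 ± 0.20 (edgeR adjusted p = 3.31e-05). HIST1H4E and HIST1H4I rose by 1.61 and 1.56. All H4 genes but HIST1H4G encode the same protein, and 11 of the 15 were not tested. HIST4H4, alone on chromosome 12, had a log2 fold change of 0.91 ± 0.58 and did not pass.

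Among H2B genes, 11 of 15 tested rose. HIST1H2BN had 5.32, 3.95 and 7.04 CPM with the combination and 1.07, 1.28 and 1.29 CPM in vehicle (log2 fold change 2.16 ± 0.26, edgeR adjusted p = 5.07e-05). HIST1H2BJ had 20.2, 14 and 33 CPM with the combination and 8.22, 6.13 and 4.81 CPM in vehicle (1.81 ± 0.31, edgeR adjusted p = 0.000578). Neither gene's groups overlapped, and combination replicate 3 was the highest library for both. The most abundant member, HIST1H2BK, had 85.2, 79.1 and 107 CPM with the combination and 53.1, 46.2 and 47.6 CPM in vehicle, a log2 fold change of 0.89 ± 0.17 (edgeR adjusted p = 0.00114). The other H2B genes that rose did so by 0.57 (HIST1H2BD) to 2.07 (HIST1H2BE). HIST1H2BC, HIST1H2BL, HIST2H2BA and HIST2H2BC had log2 fold changes of 0.25 to 0.95 and did not pass. Leaving out 1 library ended the calls of HIST1H2BD (combination replicate 1 or 3, vehicle replicate 2 or 3) and HIST2H2BF (combination replicate 1, chaetocin replicate 2 or any vehicle library).

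Among H2A genes, 9 of 12 tested rose. HIST1H2AG, the divergent partner of HIST1H2BJ, had 7.84, 4.79 and 7.30 CPM with the combination and 2.49, 2.55 and 1.99 CPM in vehicle (log2 fold change 1.5 ± 0.20, edgeR adjusted p = 0.000109). HIST1H2AB was called from very few reads, 46 over the combination libraries and 3 over the vehicle libraries, a ratio of 13.5 (95% counting interval 4.33 to 67.7, counting error only). HIST1H2AM rose by 1.89, HIST1H2AL by 1.86 and HIST1H2AD by 1.64. HIST1H2AC, the most abundant H2A gene, had 14.2, 13.2 and 19.2 CPM with the combination and 13.8, 13.4 and 11.6 CPM in vehicle, and these overlapped (0.27 ± 0.17, edgeR adjusted p = 0.236). HIST3H2A, the 1 tested member of HIST3, was at 0.21 ± 0.29 and did not pass either.

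Among linker histone genes, 2 of 4 tested rose. HIST1H1C had 24.1, 18.8 and 29.4 CPM with the combination and 11.1, 9.39 and 11.7 CPM in vehicle (log2 fold change 1.17 ± 0.20, edgeR adjusted p = 0.000674). HIST1H1B rose by 1.0 ± 0.33 (edgeR adjusted p = 0.0289) and did not pass without combination replicate 1 or any 1 vehicle library. HIST1H1E, at 0.418 ± 0.0533 CPM with the combination and 0.465 ± 0.248 CPM in vehicle, did not pass (-0.16 ± 0.38), nor did HIST1H1D. HIST1H1T, known from testis, was not tested. It had 19 reads over the combination libraries and 7 over the chaetocin libraries, and 0 over the vehicle and the MLN8237 libraries. Against a floor of 3 counts over the vehicle group, the ratio was 5.57 with the combination and 2.04 with chaetocin. These ratios leave out the counting error of the 19 and 7 reads themselves. HIST3H3, also known from testis, had reads only with MLN8237, at 3, 0 and 2 by library.

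**Figure D3:**
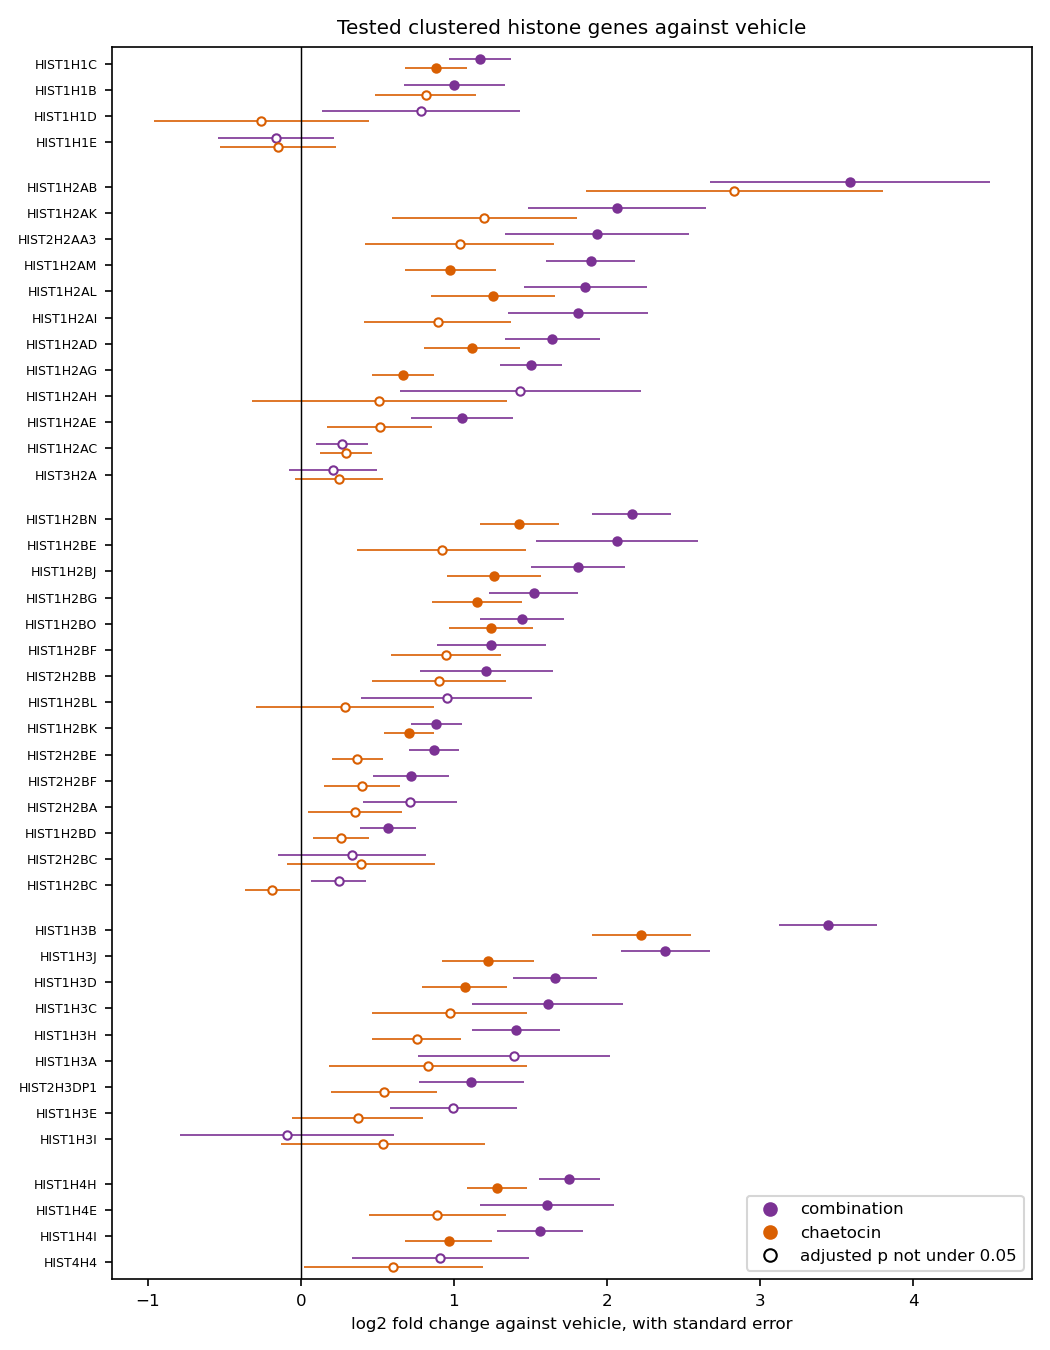
Log2 fold change against vehicle with its standard error for the 44 tested members, grouped by histone type, with the combination (purple) and chaetocin (orange); filled points had an adjusted p under 0.05 in edgeR. All filled points lie above 0; the values of HIST1H2AB rest on 3 vehicle reads and depend on the fit.

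With chaetocin alone against vehicle, 15 of 44 tested members rose and 0 fell, while 12.6% of all tested genes rose and 11.9% fell. At an unadjusted p under 0.05, 20 were higher and none lower, and 4272 of all 22831 tested genes were higher. All 15 were among the 35 members at or above the cutoff in vehicle, where 10.4% of all genes meeting that condition rose. The median log2 fold change was 0.86 over the 44 members, against 0.01 over all tested genes. Among the 10237 tested genes averaging under 5 CPM, 14.9% rose and the median was 0.17. In 22 members every chaetocin library lay above every vehicle library (24.2% of all tested genes). Without chaetocin replicate 3, vehicle replicate 1 or vehicle replicate 2 the count was 9 in each case, and without all 3 treated libraries numbered 3 it was 18 of 48. With the 11 overlapping members set aside it was 9 of 33.

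HIST1H3B again had the smallest p, with 1.28, 1.78 and 1.40 CPM with chaetocin against 0.419, 0.274 and 0.268 CPM in vehicle (log2 fold change 2.22 ± 0.32, edgeR adjusted p = 0.000419). HIST1H4H had 5.80, 6.22 and 7.36 CPM with chaetocin against 2.35, 2.48 and 3.11 CPM in vehicle (1.28 ± 0.20, edgeR adjusted p = 0.000576). HIST1H2BN had 2.31, 3.22 and 4.28 CPM with chaetocin against 1.07, 1.28 and 1.29 CPM in vehicle (1.43 ± 0.26, edgeR adjusted p = 0.00161). In all of these the chaetocin and vehicle libraries did not overlap. HIST1H2BJ rose by 1.26, HIST1H2BO by 1.24, HIST1H3J by 1.22 and HIST1H2BG by 1.15. HIST1H1C rose by 0.89 and HIST1H2BK by 0.71, with 65.3, 75.8 and 98.6 CPM for HIST1H2BK with chaetocin. HIST1H2AC (0.30) and HIST1H1E (-0.15) did not pass. The calls of HIST1H2AG (0.67) and HIST1H2AM (0.98) were lost without any 1 chaetocin or vehicle library, and that of HIST1H4I (0.97) without any of these but chaetocin replicate 1. HIST1H3D (1.07) and HIST1H2AD (1.12) did not pass without chaetocin replicate 3 or vehicle replicate 1, HIST1H2AD also not without vehicle replicate 2. HIST1H2BG did not pass without chaetocin replicate 2 or vehicle replicate 2. With no filter, HIST1H2BJ and HIST1H2AM did not pass.

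By type, chaetocin alone raised 1 H1, 4 H2A, 5 H2B, 3 H3 and 2 H4 genes of those tested. All 15 called with chaetocin were also called with the combination, which called 16 further members. The calls with chaetocin are thus 48.4% of those with the combination, and these comparisons share their vehicle libraries. A change of more than 2-fold that passed was seen in 27 members with the combination and in 10 with chaetocin.

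**Figure D4:**
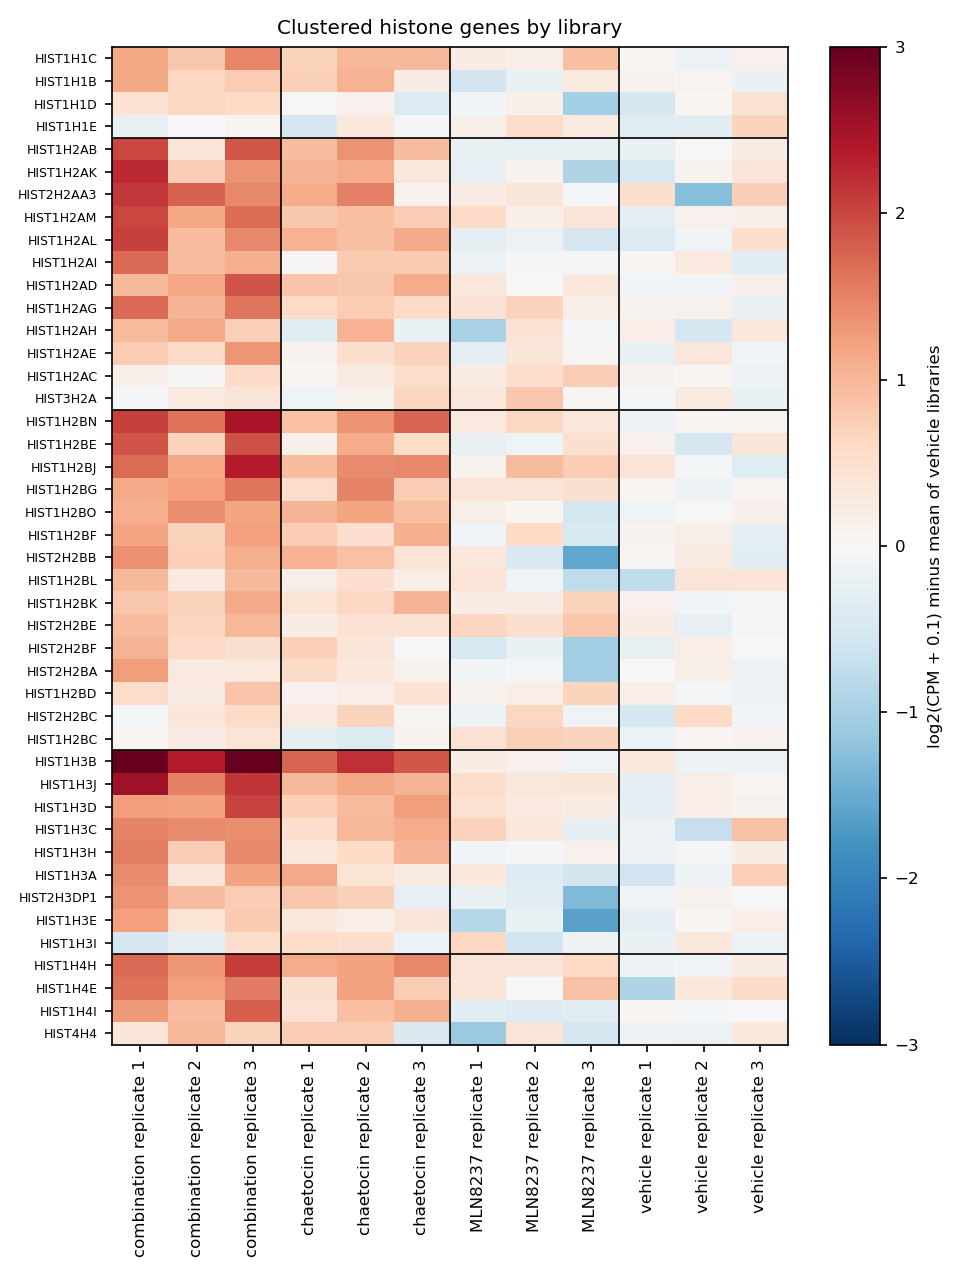
Colours give log2(CPM + 0.1) of each tested member in each library minus the mean of the vehicle libraries, from blue (lower) to red (higher), limited to 3 either way, with combination, chaetocin, MLN8237 and vehicle libraries from left to right. HIST1H3B is the darkest row under the combination, and HIST1H1E, HIST1H2AC and HIST1H2BC stay near the vehicle mean.

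With MLN8237 alone against vehicle, 0 of 44 members passed in edgeR in either direction, as did 0.00438% of all tested genes upwards and 0% downwards. At an unadjusted p under 0.05, 9 members did, 7 of them higher, beside 1938 of all 22831 tested genes, 1226 of them higher. DESeq2 also called 0 members. The median log2 fold change was 0.08. Leaving aside HIST1H2AB, which had no read in MLN8237 libraries and 3 in vehicle libraries, the 43 others ranged from -1.11 to 0.68. The smallest p values belonged to HIST2H2BE, HIST1H2BC and HIST1H2AC. HIST2H2BE had 4.56, 4.07 and 5.20 CPM with MLN8237 against 3.33, 2.41 and 2.92 CPM in vehicle, with no overlap (log2 fold change 0.68 ± 0.16, edgeR adjusted p = 0.516). HIST1H2BC had 3.64, 4.34 and 4.19 CPM with MLN8237 against 2.29, 2.74 and 2.86 CPM in vehicle (0.62 ± 0.18, same adjusted p). HIST1H2AC had 15.2, 18.7 and 21.6 CPM with MLN8237, above every vehicle library (0.52 ± 0.17). Every MLN8237 library lay above every vehicle library in 11 members and below in 2, against 6.96% and 7.06% of all tested genes.

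Between the combination and chaetocin alone, 0 of 44 members passed in edgeR, as did 0% of all tested genes in either direction. At an unadjusted p under 0.05, 13 members were higher with the combination and none lower, and 1582 of all 22831 tested genes were higher. The log2 difference was positive in 39 of 44 members, with a median of 0.56 against 0.00 over all tested genes. Among the 10237 tested genes averaging under 5 CPM, 6595 were positive and the median was 0.15. The smallest p values belonged to HIST1H3B (1.22 ± 0.28), HIST1H3J (1.16 ± 0.27) and HIST1H2AG (0.84 ± 0.20), each with an edgeR adjusted p of 0.203. HIST1H2AG had 7.84, 4.79 and 7.30 CPM with the combination against 3.59, 4.01 and 3.57 CPM with chaetocin, and HIST1H3J had 2.52, 1.19 and 1.91 CPM against 0.781, 0.914 and 0.814 CPM. Neither gene overlapped between these groups. DESeq2 called these 3 genes higher with the combination. Without combination replicate 2, edgeR called them and HIST1H2AM. Every combination library lay above every chaetocin library in 10 members and below in 0, against 9.54% and 9.15% of all tested genes.

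Against MLN8237 alone, 32 of 44 members rose with the combination and 0 fell (23.3% of all tested genes rose and 22.7% fell). Among the 35 members at or above the cutoff in vehicle, 27 rose, against 20.1% of the 20484 genes tested that meet the same condition. That condition is on vehicle and does not set a level for the MLN8237 libraries. The median log2 difference was 1.33, also with HIST1H2AB at its bound. Among the 10237 tested genes averaging under 5 CPM, 29% rose and the median was 0.37. HIST1H3B (3.34 ± 0.32, edgeR adjusted p = 1.11e-05), HIST1H4I (1.99 ± 0.29, 0.000193) and HIST1H2BN (1.72 ± 0.25, 0.000193) had the smallest p values. HIST1H4I, an H4 gene, had 1.2, 0.927 and 1.75 CPM with the combination against 0.331, 0.310 and 0.329 CPM with MLN8237. For HIST1H2AB, which had no read with MLN8237, the bound was 12.6-fold against a floor of 3 counts over the MLN8237 group. It leaves out the counting error of the combination reads. HIST1H2BC had the lowest value among genes with more than 1 CPM, 3.12 ± 0.394 CPM with the combination and 4.06 ± 0.369 CPM with MLN8237 (SD, n = 3), and did not pass (-0.38 ± 0.18, edgeR adjusted p = 0.0994).

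The interaction asks whether the change with both compounds differs from the sum of the changes with each on the log2 scale. It was called in 0 of 44 members and in 0% of all tested genes in either direction by edgeR. DESeq2 called 0 members. An unadjusted p under 0.05 was seen in 6 members, 5 of them positive, and in 3108 of all 22831 tested genes, 1339 of them positive. The 6 members are a share near that of all genes. The median was 0.45 with 32 members positive, and without HIST1H2AB values ran from -0.70 to 1.74. Among the 10237 tested genes averaging under 5 CPM, 6186 were positive and the median was 0.17. The smallest p values were those of HIST1H3E (1.74 ± 0.63), HIST2H2BF (0.89 ± 0.35) and HIST1H4I (1.02 ± 0.41), each with an edgeR adjusted p of 0.362. HIST1H3E had 0.949, 0.490 and 0.663 CPM with the combination, 0.469, 0.411 and 0.485 with chaetocin, 0.147, 0.289 and 0.0439 with MLN8237, and 0.273, 0.365 and 0.411 in vehicle.

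By cluster, 26 of 35 tested HIST1 members and 5 of 7 tested HIST2 members rose with the combination, against 20.1% of all tested genes. With chaetocin alone 15 HIST1 members and 0 HIST2 members rose, against 12.6% of all tested genes. With only 7 HIST2 members tested, a count of 0 is near that share. The median log2 fold change with chaetocin was 0.89 in HIST1 and 0.40 in HIST2. At an unadjusted p under 0.05, 1 of the 7 tested HIST2 members was higher with chaetocin, beside 4272 of all 22831 tested genes. The difference between clusters was not tested. Along chromosome 6, the 5 members from HIST1H2BJ to HIST1H2AH (hg19 27093676 to 27115317) were all tested, and 4 rose with the combination and 4 with chaetocin. Of the 16 members from HIST1H2BL to HIST1H2BO (27775257 to 27861669), 11 were tested and 9 rose with the combination and 5 with chaetocin. Of the 32 members from HIST1H1A to HIST1H4H, 19 were tested and 13 rose with the combination and 6 with chaetocin. Beside these stretches stand the same 20.1% and 12.6% of all tested genes. By vehicle mean, the combination raised 4 of 9 members under 0.178 CPM, 15 of 19 between 0.178 and 0.5, 3 of 4 between 0.5 and 1, 5 of 7 between 1 and 5, and 4 of 5 over 5 CPM. Of all tested genes at or above 0.178 CPM in vehicle, 16.6% rose. A member under 0.178 CPM in vehicle could pass the filter through treated libraries alone, and no matching share was taken for those 9.

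Some members cannot be measured apart from each other. By 50-base stretches of GENCODE 29 transcripts, 20 members shared at least 50% of their sequence with other genes. Stretches were compared on both strands with every gene there. The 20 therefore include genes that overlap, such as HIST1H2AM with HIST1H3J, and not only near-identical copies. HIST2H3A and HIST2H3C share 100%, and HIST2H2AA3 and HIST2H2AA4, HIST2H4A and HIST2H4B, HIST1H4J and HIST1H4K, and HIST1H2AI and HIST1H2AJ are further near-identical pairs. HIST1H2BK shares 74.1% with other genes, most with H2BFS (61.4%), so its reads could be split or lost. Of the 34 tested members under 50%, 22 rose with the combination and 11 with chaetocin, against 20.1% and 12.6% of all tested genes. HIST1H3B and HIST1H4H share none of their stretches with another gene.

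Other members lie on top of another gene in the deposited hg19 coordinates, 16 in all and 11 of those tested. HIST1H3D overlaps HIST1H2AD, HIST1H3J overlaps HIST1H2AM and HIST1H2BK overlaps HIST1H4I, so the calls within each of these pairs may not be independent. HIST1H2AM shares 86.3% of its 50-base stretches with HIST1H3J. How reads lying in both genes of a pair were counted, and whether by strand, is not stated. HIST2H2BF overlaps FCGR1A and HIST1H2BD overlaps LARP1P1. Without overlapping members, 21 of 33 rose with the combination, against 20.1% of all tested genes. Of 4 tested pseudogene members, 2 rose with the combination, HIST2H3DP1 and HIST2H2BB. None of the 4 passed with chaetocin, where 12.6% of all tested genes rose.

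Of 17 tested members whose transcript runs at least 100 bases past the stem-loop, 11 rose with the combination and 5 with chaetocin, with median log2 fold changes of 1.25 and 0.67. Of the 27 others, 20 and 10 rose, with medians of 1.43 and 0.89. Over all tested genes, 20.1% rose with the combination and 12.6% with chaetocin. These 27 hold HIST1H1C, HIST1H2BD and HIST1H2BK, which also have polyadenylated forms. The split therefore does not separate tailed from untailed forms. The 5 members listed as having well known polyadenylated forms were HIST1H1C, HIST1H2AC, HIST1H2BD, HIST1H2BK and HIST2H2BE. They summed to 147 CPM with the combination, 128 with chaetocin, 112 with MLN8237 and 83.0 in vehicle. Of these 5, 4 were called higher with the combination and 2 with chaetocin, beside the same 20.1% and 12.6% of all tested genes. As a view of how far the libraries captured RNA with no tail, 5 small RNAs of that kind (RN7SK, RN7SL1, RN7SL2, RMRP and RPPH1) were added after the values had been seen. None passed, and their sums were 30.1 to 113 CPM with the combination, 43.9 to 105 with chaetocin, 45.1 to 118 with MLN8237 and 43.9 to 109 in vehicle, so the groups overlapped, with replicate 3 the highest in each.

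Genes that make and process histone mRNA were also listed. Of 25 such genes, 6 rose and 1 fell with the combination (20.1% of all tested genes rose and 18.3% fell), with a median log2 fold change of 0.09. The 6 are a share near that of all genes, so the values below describe single genes and not the list. HINFP, a transcription factor of H4 genes, rose by 0.58 with the combination (edgeR adjusted p = 0.000153) and by 0.36 with chaetocin (0.00693). ZNF473, a zinc finger protein of the U7 complex, rose by 0.69, and ZCCHC6, a uridylyltransferase that marks histone mRNA for decay, by 1.04. CRAMP1L, ERI1 and CSTF2 rose by 0.41, 0.28 and 0.26, and COIL, coilin of the Cajal body, fell by 0.30. SLBP averaged 117 CPM with the combination and 101 in vehicle (log2 fold change 0.21, edgeR adjusted p = 0.177), and NPAT, the activator of histone gene transcription, averaged 35.4 CPM with the combination and 30.1 in vehicle (0.23, 0.404). With chaetocin HINFP rose and SYMPK, a scaffold of the cleavage complex, fell by 0.33, while the other 23 did not pass (12.6% of all tested genes rose and 11.9% fell).

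Of 24 listed genes of S phase, 2 rose and 13 fell with the combination, against 20.1% and 18.3% of all tested genes, with a median log2 fold change of -0.29. The cyclin genes CCNE1 and CCNA2 rose by 0.51 and 0.34, whereas the replicative helicase genes MCM6 and MCM5 fell by 0.71 and 0.61 and CDC45 by 0.58. Their summed level was 3323 to 3788 CPM in combination libraries and 3930 to 4267 CPM in vehicle libraries, without overlap. With chaetocin alone CCNE1 and E2F1 rose by 0.54 and 0.58, none fell (12.6% and 11.9% of all tested genes rose and fell), and the median was 0.05. The part of cell cycle distribution in the histone values was not tested, and fewer cells in S phase and less RNA per cell cannot be told apart in bulk libraries.

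Histones outside the clusters are mostly made throughout the cell cycle from polyadenylated mRNAs. Of 11 listed, 6 fell and 2 rose with the combination, against 18.3% and 20.1% of all tested genes. With chaetocin 5 fell and 2 rose, against 11.9% and 12.6%. H1F0, a linker histone of quiescent and differentiated cells, had a mean of 62.6 CPM with the combination and 138 CPM in vehicle and fell by 1.14 (edgeR adjusted p = 2.05e-06). H1FX fell by 0.90, H3F3A by 0.72, H2AFJ by 0.71, H2AFY2 by 1.0 and H2AFV by 0.40. H2AFX, whose protein is phosphorylated at DNA breaks, rose by 0.68 and CENPA, the centromeric H3, by 0.34. Of 8 histone chaperone genes, ASF1A (0.64) and ASF1B (0.27) rose with the combination and NASP and RBBP7 fell by 0.50 and 0.36, counts near the 20.1% and 18.3% of all tested genes. With chaetocin 1 of the 8, ASF1A, passed (0.83), against 12.6% of all tested genes that rose.

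**Figure D5:**
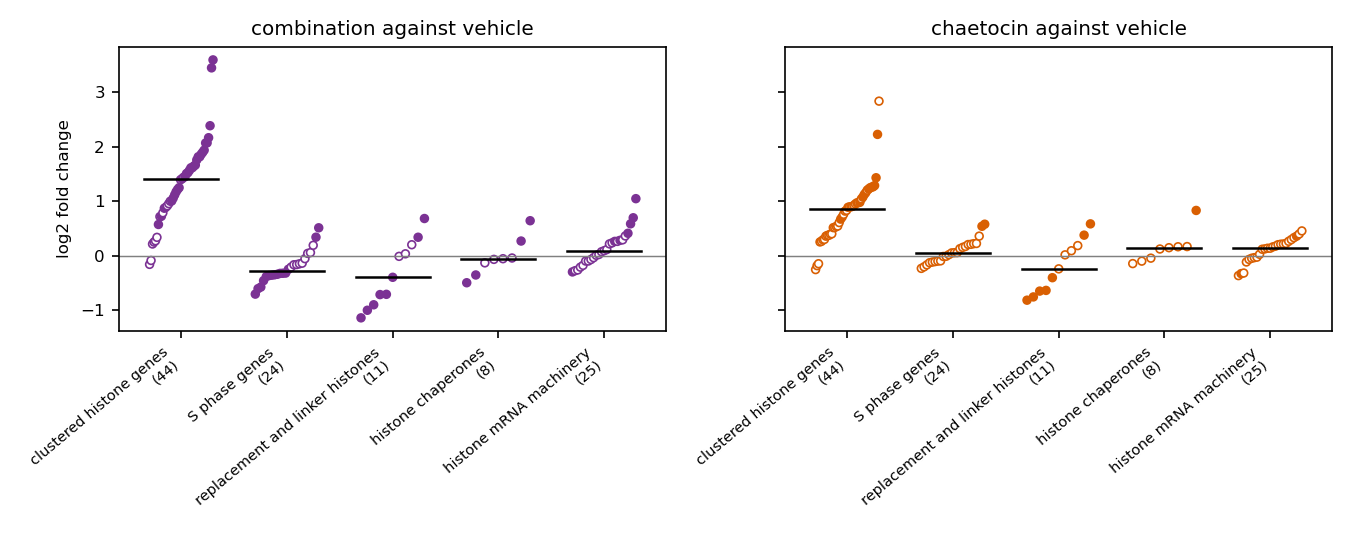
Log2 fold change of each tested gene (points) and the median (line) in 5 groups of genes, for the combination (left panel) and chaetocin (right panel) against vehicle; filled points had an adjusted p under 0.05 in edgeR. With the combination, medians are 1.40 for the 44 clustered histone genes, -0.29 for 24 S phase genes, -0.40 for 11 replacement and linker histones, -0.06 for 8 chaperones and 0.09 for 25 genes of histone mRNA production.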

How the data were processed

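PANC-1 RNA-seq libraries (12) were read from a table in which the authors deposited raw counts and RPKM per gene, with gene length and hg19 positions, per the file headers. Counts are whole numbers; RPKM, scaled by the authors to length and library total, was used here only to compare levels between genes. The submitters' processing notes name CASAVA 1.9, TopHat 12.0.6, HTSeq and hg19, without roles; strandedness and read length are not given in the sources used here.

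Counts were tested with edgeR 4.0.16 (R 4.3.3): expression filter by group (22831 genes), TMM scaling, 4 group means over 12 libraries, robust quasi-likelihood F test, Benjamini-Hochberg over all tested genes, and a threshold of 0.05. The common biological coefficient of variation was 0.155. CPM values are TMM-scaled. Calls were checked on simulated counts with a common spread and with changes placed only in well-counted genes. That check does not cover members with few counts. DESeq2 1.42.0, RLE scaling, other filters, a replicate block and left-out libraries were alternatives. Stem-loops and shared 50-base stretches came from GENCODE 29 transcripts (GRCh38) and promoters from RefSeq (GRCh38.p14).

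Members and gene lists were chosen with earlier results of these data known. Named members were the 3 of highest mean RPKM per type, up to 12 of smallest p each way among those passing for the combination and chaetocin against vehicle, and the 3 of smallest p in other comparisons; other members are named where a count or a copy needed it.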

Additional observations from a re-analysis of the deposited data

How the results depend on the processing

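Direction was followed for the members named by the rule above, and none of them changed direction with a call under any alternative run. RLE scaling left every count of calls as it was. With genes kept only at 1 CPM or more in 6 or more libraries, 15 members were tested, of which 11 rose with the combination against vehicle, 8 with chaetocin and 10 with the combination against MLN8237; fewer genes tested lowers these counts by construction. Without overlapping members, 9 of 33 rose with chaetocin, against 12.6% of all tested genes. For the combination against chaetocin, 1 member passed with no filter (HIST1H3B), 3 with DESeq2 and 4 without combination replicate 2; the cause was not tested. Leaving out 1 library at a time, members higher numbered 23 to 33 for the combination against vehicle, 9 to 18 for chaetocin against vehicle (9 without chaetocin replicate 3, vehicle replicate 1 or vehicle replicate 2), 24 to 33 for the combination against MLN8237 and 0 to 4 for the combination against chaetocin.

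In no comparison made did all 3 same-number pairs correlate above 0.1, so libraries were not treated as paired. Over all groups 9 of 18 such pairs did (-0.153 to 0.462), among them all 3 between chaetocin and MLN8237. Treated libraries numbered 3 correlated at 0.436 to 0.462, above every pair of unlike numbers (at most 0.267), and 7 of 12 libraries correlated best with their own number. With the replicate number as a block, 32 members rose with the combination and 15 with chaetocin against vehicle. Against MLN8237 32 rose and 1 fell, HIST1H2BC (log2 difference -0.38, edgeR adjusted p = 0.0491). Of the values of single named members, 2791 kept their side of the threshold, 57 lost it and 18 gained it. HIST1H2AG and HIST1H2AM with chaetocin lost it without any 1 of the chaetocin or vehicle libraries. At these depths 27 members with counts did not reach the filter, 10 of them H4 genes; the cause was not tested.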
